A study of Homo sapiens with 8 samples.

Results

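The 55 genes described here encode proteins of mitosis, from the kinases and cyclins that start cell division to the kinesins, kinetochore proteins and cytokinesis factors that carry it out. They were taken by name, for their known role, with earlier results of these data known. All 55 were found among the 13730 genes of the deposited table. Their levels were compared between 4 groups of LN229-TAZ(4SA) cells, derived from LN229, an established human glioblastoma line. EV control cells and TrxR1 knockout (KO) cells were each grown in regular or in glucose-deprived medium, and RNA-seq was made from 2 libraries for each group, 8 in all. The study asks how loss of TrxR1 (thioredoxin reductase 1, encoded by TXNRD1) and lack of glucose act together on these tumour cells. All 4 groups carry the TAZ(4SA) construct. The labels do not say how long glucose was withheld or from how many clones the KO cells were derived, so any difference between the KO and EV lines other than TrxR1 cannot be told apart from its loss. Whether the 2 libraries of a group are separate cultures is not stated either, and the p-values then reflect only how far these libraries differ, which may be technical.

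Cells enter mitosis when CDK1 bound to a cyclin B is freed from inhibitory phosphorylation, and they leave it when the anaphase-promoting complex marks cyclin B and securin for destruction. Between these steps the Aurora and Polo-like kinases, the spindle checkpoint, kinetochores and motor proteins attach and move the chromosomes. Most of these genes are transcribed in waves that peak in G2 phase and mitosis, under the MuvB complex with the transcription factors MYBL2 and FOXM1, so their mRNA level in a culture is widely used as a sign of proliferation.

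Levels are given as CPM (counts scaled to an effective library size), which is not adjusted for gene length and is compared here only between libraries. That size differs from the sum of the listed reads, so a summed CPM is not a plain share of reads. The libraries held 70083018 to 107229069 reads in the listed genes, and 1 read was worth 0.00948 to 0.0143 CPM. Differences are log2 fold changes from limma, with its standard error (SE) and a two-sided p-value adjusted with the Benjamini-Hochberg method across the 13057 genes that were tested. A gene is described as called, or as having risen or fallen, where the adjusted p was under 0.05. Of 8 genes checked as glioma-line markers, VIM averaged 2993 CPM, CD44 1099 CPM and NES 788 CPM in EV cells in regular medium. EGFR averaged 111 CPM there, SOX2 55.1 CPM, S100B 18.5 CPM and OLIG2 6.20 CPM, and the astrocyte marker GFAP stood at 0.755 CPM. The epithelial marker KRT18 averaged 183 CPM, and the leukocyte markers CD68 and CD14 averaged 25.5 and 0.786 CPM. The other leukocyte, epithelial and endothelial markers checked were not among the listed genes. TXNRD1 mRNA averaged 262 CPM in EV cells and 247 CPM in KO cells in regular medium (log2 fold change -0.08, adjusted p = 0.19), and 501 and 361 CPM in glucose-deprived medium (-0.47, adjusted p = 2e-05). A total mRNA level does not test whether the protein is lost. TXNIP, which glucose induces, averaged 86.3 CPM in EV cells in regular medium and 10.5 CPM in the EV libraries read as glucose-deprived.

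Together, the 55 genes had their lowest summed level in KO cells without glucose. Their summed level was 17063 and 17108 CPM in the EV libraries in regular medium and 16737 and 17197 CPM in the KO libraries in regular medium. In glucose-deprived medium it was 14215 and 14572 CPM in EV cells and 12594 and 12025 CPM in KO cells. The regular-medium libraries of both lines thus overlapped, EV cells without glucose lay below them, and both KO libraries without glucose lay lower still. By group mean, 49 of the 55 genes had their lowest level in KO cells without glucose. The share of all genes tested with their lowest mean in that group was not counted. In bulk RNA, fewer cells in mitosis and less of these mRNAs per cell cannot be told apart.

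**Figure D1:**
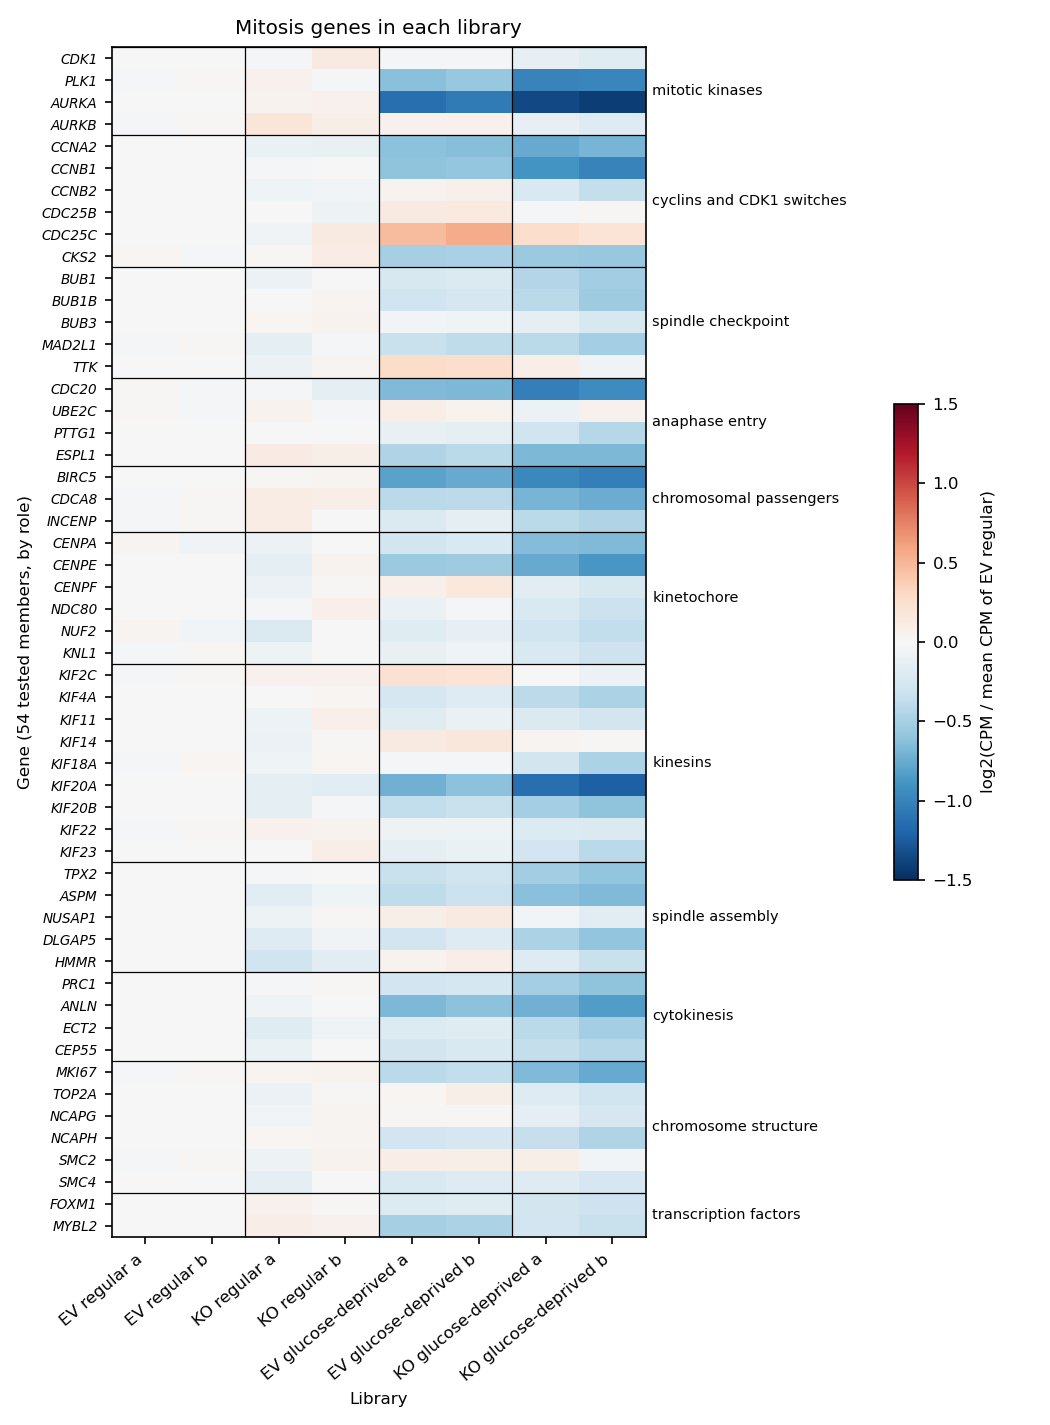
Level of each of the 54 tested mitosis genes (vertical axis, grouped by role) in each of the 8 libraries (horizontal axis), coloured by log2 of its CPM over the mean of the 2 EV libraries in regular medium. Blue, for lower levels, deepens from EV to KO cells in glucose-deprived medium for most genes. By group mean, 13 of the 55 chosen genes, among them CDC25C and TTK, were highest in EV cells without glucose.

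In 3 of the 4 groups the genes also moved together between the libraries, so counts of genes called are not counts of independent events. In KO cells without glucose, library a lay above library b for 48 of 55 genes, with a median log2 difference (b minus a) of -0.08. In KO cells in regular medium, a lay below b for 40 of 55, with a median of 0.07, and in EV cells without glucose for 44 of 55, with a median of 0.035. In EV cells in regular medium there was no such shift, with a below b for 28 of 55 and above it for 27. The median absolute log2 difference between the libraries of a group, over the tested mitosis genes, was 0.0146 in EV cells in regular medium and 0.0376 in EV cells without glucose, against 0.0887 and 0.0853 in the matching KO groups. Over all genes tested it was 0.0381, 0.0457, 0.0777 and 0.0719 in the same order, so the KO libraries differed more between themselves than the EV libraries did, and limma's single estimate of spread covers both. The gene SPC25, a kinetochore protein, was too low to test, at 0.758 to 1.11 CPM or 64 to 101 reads in a library. The other 54 were tested.

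In regular medium, mitosis genes were called between KO and EV cells no more often than genes at large. Of the 54 tested, 1 fell and 0 rose by limma, against 3.38% of all genes tested called lower and 3.87% called higher. At an unadjusted p under 0.05, 5 were lower and 4 higher, where 1569 and 1538 of all 13057 genes tested were. The median log2 fold change was -0.01, with a range of -0.23 to 0.14. HMMR, which encodes a hyaluronan receptor that also binds spindle microtubules, was at 154 and 156 CPM in EV and at 126 and 138 CPM in KO cells. Both KO libraries lay below both EV libraries, and the log2 fold change was -0.23 (SE 0.052, adjusted p = 0.026). The call for HMMR did not hold without KO regular a, either EV regular library or either EV glucose-deprived library, nor without the variance trend, with adjusted p-values up to 0.174. The next most negative log2 fold changes, of KIF20A and ECT2, and the most positive, of AURKB, CDCA8 and ESPL1, were -0.14, -0.12, 0.14, 0.11 and 0.11, and did not pass the test (adjusted p = 0.073, 0.14, 0.083, 0.075 and 0.071). The number of mitosis genes called changed with the library left out, and so did the number over all genes tested.

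In glucose-deprived medium, by contrast, most mitosis genes fell in KO cells relative to EV cells. By limma 41 of 54 tested (75.9%) were called lower and 1 higher, where 10.6% of all genes tested were called lower and 9.04% higher. The median log2 fold change was -0.225, against -0.01 over all genes tested, and 53 of 54 estimates were negative. The log2 fold changes ran from -0.51 for KIF20A to 0.18 for MYBL2. All 3 chromosomal passenger genes and all 5 spindle assembly genes fell, as did 7 of 9 kinesins and 5 of 6 tested kinetochore genes. Of the 2 transcription factors, neither fell and MYBL2 rose. The number called rested in part on the EV libraries: without EV glucose-deprived a it was 27, and without EV glucose-deprived b it was 23, when 393 and 402 of all genes tested were called lower. With any other library left out more were called lower than in these fits, and more of all genes tested were too. Of the 41 genes, 23 stayed called under every setting tried, among them PLK1, AURKA, CCNB1, CCNB2, CDC20, KIF20A, CENPA and TOP2A.

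**Figure D2:**
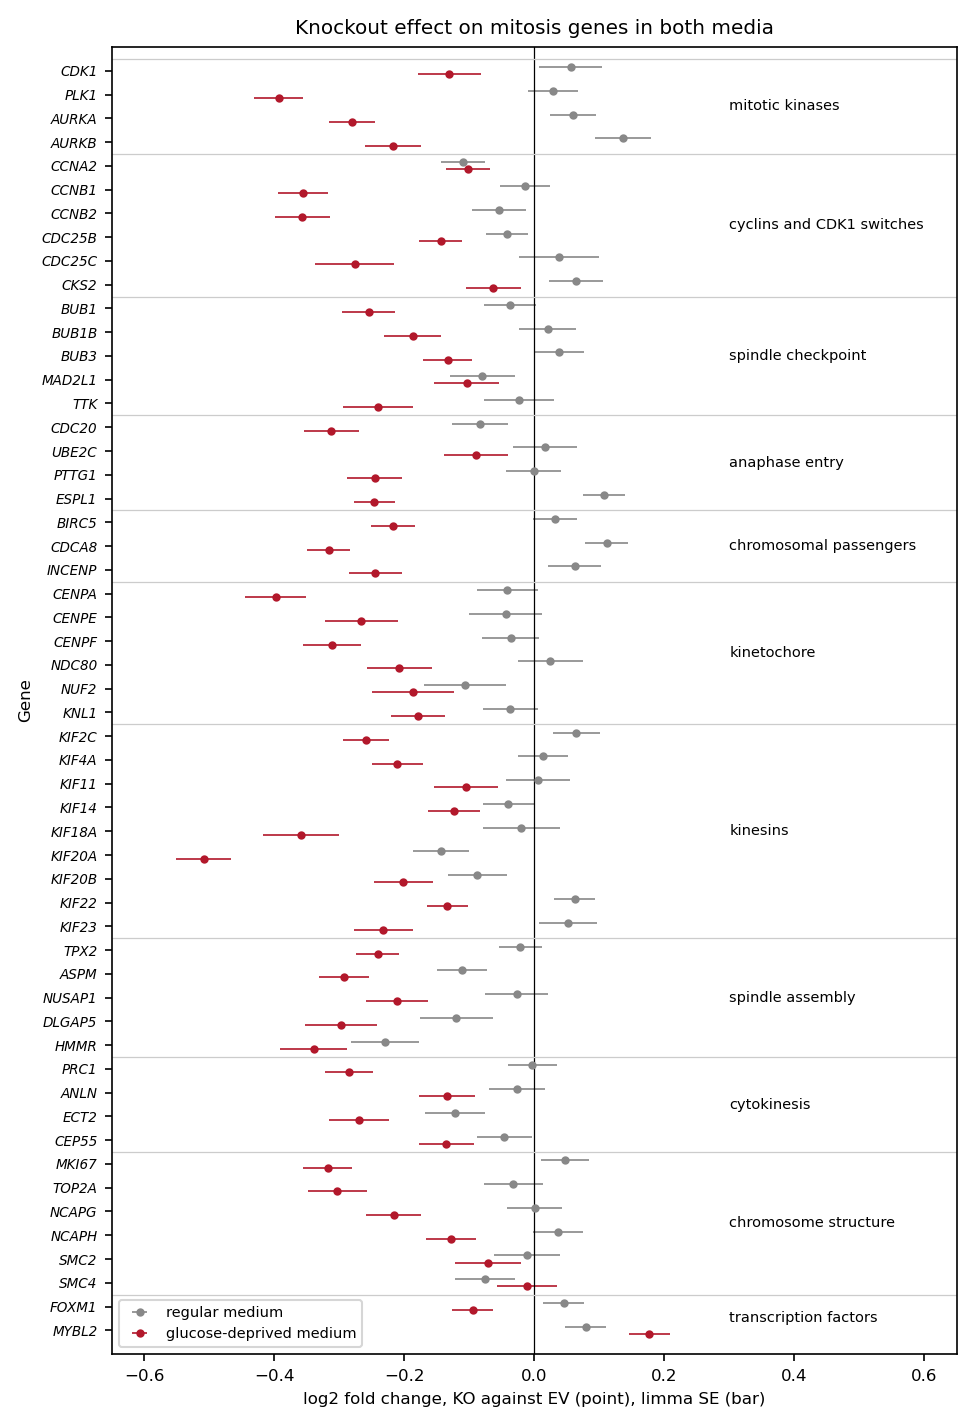
Log2 fold change of KO against EV cells (horizontal axis; points, with bars of the limma SE) for each tested mitosis gene (vertical axis, by role), in regular medium (grey) and glucose-deprived medium (red). The grey points scatter on both sides of 0, from -0.23 to 0.14, while the red points lie below 0 for every gene but MYBL2.

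The start-site sequences of the genes that fell are shown because cell cycle genes of this wave are known for a shared promoter layout, in which a cell cycle genes homology region (CHR, here searched as TTTGAA or TTTAAA) binds the MuvB complex and upstream CCAAT boxes bind the factor NF-Y. The 4 genes below have the smallest adjusted p for KO against EV cells without glucose among those whose promoter holds a CHR string. Each line gives the 250 bases before the RefSeq start on the plus strand of GRCh38.p14, at chr5:138178862-138179111 for KIF20A, chr16:23678639-23678888 for PLK1, chr1:37692266-37692515 for CDCA8 and chr5:69166900-69167149 for CCNB1. Capitals mark the CHR strings and CCAAT, the latter printed as ATTGG where it lies on the reverse strand. In CDCA8, the TTTGAA and the nearest ATTGG share 1 base.
KIF20A: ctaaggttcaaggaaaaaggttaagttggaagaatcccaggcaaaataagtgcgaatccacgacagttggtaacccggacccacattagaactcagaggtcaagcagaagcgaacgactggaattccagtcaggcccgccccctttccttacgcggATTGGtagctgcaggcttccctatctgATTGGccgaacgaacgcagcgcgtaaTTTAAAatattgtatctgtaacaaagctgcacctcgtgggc
PLK1: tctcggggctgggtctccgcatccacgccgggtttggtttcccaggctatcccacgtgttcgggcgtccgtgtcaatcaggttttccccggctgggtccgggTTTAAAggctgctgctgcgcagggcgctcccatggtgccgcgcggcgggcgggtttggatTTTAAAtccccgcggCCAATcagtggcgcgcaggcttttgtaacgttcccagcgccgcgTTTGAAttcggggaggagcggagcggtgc
CDCA8: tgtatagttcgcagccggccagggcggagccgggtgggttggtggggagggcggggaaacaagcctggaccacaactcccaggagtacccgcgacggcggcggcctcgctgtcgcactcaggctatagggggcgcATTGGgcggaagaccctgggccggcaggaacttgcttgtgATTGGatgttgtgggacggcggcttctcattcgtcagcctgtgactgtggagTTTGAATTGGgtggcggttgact
CCNB1: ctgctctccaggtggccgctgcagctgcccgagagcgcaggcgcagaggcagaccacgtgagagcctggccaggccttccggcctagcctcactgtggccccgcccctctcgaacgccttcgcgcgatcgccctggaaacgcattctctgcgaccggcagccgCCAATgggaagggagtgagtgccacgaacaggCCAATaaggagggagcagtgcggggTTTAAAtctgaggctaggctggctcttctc

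Each of these promoters held a CHR string close to the start and at least 1 CCAAT further upstream. The CHR string nearest the start ended 36 bases before it in KIF20A, 24 in PLK1, 18 in CDCA8 and 25 in CCNB1. The nearest CCAAT that lies upstream of that string ended 63 bases before the start in KIF20A, 69 in PLK1, 71 in CDCA8 and 51 in CCNB1. In GENCODE 29 the 4 genes have an earlier first base (KIF20A at 138178719, PLK1 at 23677656, CDCA8 at 37692418, CCNB1 at 69167010), so these windows lie wholly or partly within the gene as that annotation draws it. RefSeq's promoter table held 47 of the 55 genes, with 60 start sites. It gave no entry for AURKA, TPX2, UBE2C, FOXM1, BUB3, KNL1, TTK and BIRC5.

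Searched on both strands over 250 bases, TTTGAA was present in 48.3% of the 60 promoters and TTTAAA, which is its own reverse complement, in 23.3%. In the promoters of all genes tested the shares were 9.38% and 8.29%, and 13.3% and 11.3% of all 35093 listed promoters held them. Either string was in 37 of 60 (61.7%), against 16.1% of promoters of tested genes and 21.9% of all. CCAAT was in 42 of 60 (70.0%), against 33.2% and 32.0%. A CHR string together with CCAAT was in 51.7%, against 5.78% and 7.64%. Within 100 bases of the start the share with either CHR string was 46.7%, against 5.41% and 8.24%. Base composition was not matched between these sets, and a string match does not show that a factor binds. Among tested genes with a promoter entry, the 33 with a CHR string had a median log2 fold change of -0.27 for KO against EV cells without glucose, and 27 were called lower. The 13 without one had a median of -0.14, and 8 were called lower. The difference between these sets was not tested.

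The effect of the knockout itself differed between the media for 21 of the 54 tested genes. This is the interaction, the log2 fold change of KO against EV cells without glucose minus that in regular medium. By limma it was negative and called for 21 genes (38.9%) and positive for 0, where 2.01% of all genes tested were called negative and 2.31% positive. At an unadjusted p under 0.05, 39 were negative and 0 positive, where 1636 and 1528 of all 13057 genes tested were. Under the 15 other settings tried no mitosis gene was called positive. The median over the mitosis genes was -0.217, against -0.01 over all genes tested. All 3 passengers, 3 of 4 mitotic kinases and 5 of 9 kinesins were called, and 0 of 5 spindle checkpoint genes, although 4 of those 5 were negative at an unadjusted p under 0.05 and 4 were called without KO glucose-deprived a. Without any of the 4 EV libraries, 1 passenger and 0 or 1 kinesin were called. Without the variance trend the count was 5, when 71 of all genes tested were called negative, against 262 in the fit reported here. The count was lower when any 1 of the 4 EV libraries was left out and higher without KO glucose-deprived a. The number over all genes tested moved in the same way. The 5 genes called under every setting were PLK1, AURKA, CDCA8, MKI67 and ESPL1.

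In EV cells, glucose deprivation alone split the mitosis genes. By limma 34 of 54 fell (63.0%) and 6 rose (11.1%), where 38.7% of all genes tested were called lower and 37.5% higher. The log2 fold changes ran from -1.10 for AURKA to 0.51 for CDC25C, with a median of -0.205. The 6 that rose were CDC25B, CDC25C, TTK, CENPF, KIF2C and KIF14. With the EV groups fitted alone, 13 rose, when 5231 of all 13057 genes tested were called higher. With libraries weighted by the spread of their group 10 rose, when 5272 of all genes tested were called higher. CENPF, a large kinetochore and nuclear matrix protein, lost its call without either EV regular library, without EV glucose-deprived b and without the variance trend, with adjusted p-values up to 0.259.

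In KO cells, deprivation lowered most of them. By limma 46 of 54 fell (85.2%) and 1 rose, where 36.8% of all genes tested were called lower and 36.5% higher. The median log2 fold change was -0.371 and the range -1.44 to 0.20. The gene that rose, CDC25C, lost its call without KO regular a or KO glucose-deprived a. Without KO regular b, KIF14 was called higher as well. Of the 54 tested genes, 25 fell in 3 comparisons, namely with deprivation in each line and in KO against EV cells without glucose. A further 9 fell in the KO line with deprivation and in KO against EV cells without glucose, but were not called in EV cells with deprivation. Another 8 fell with deprivation in both lines and were not called between the lines. These comparisons share libraries, so the patterns are not independent of each other. How many of all genes tested show each pattern was not counted.

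Among the mitotic kinases, PLK1, the Polo-like kinase that acts at centrosomes, kinetochores and the midzone, shows the common pattern. Its level was 395 and 407 CPM in EV and 421 and 397 CPM in KO cells in regular medium, then 259.7 and 270.0 CPM in EV and 199.8 and 203 CPM in KO cells without glucose. The lines overlapped in regular medium (log2 fold change 0.03, adjusted p = 0.69), and without glucose both KO libraries lay below both EV libraries (-0.39, SE 0.038, adjusted p = 0.00012). The interaction was -0.42 (SE 0.054, adjusted p = 0.0024). AURKA, the Aurora kinase of centrosomes and spindle poles, stood at 367 and 372 CPM in EV and 383 and 388 CPM in KO cells in regular medium, and at 168 and 176 CPM in EV and 145 and 139 CPM in KO cells without glucose. Deprivation thus took it below every regular-medium library in both lines, with a log2 fold change of -1.10 in EV cells (adjusted p = 1.3e-09) and -1.44 in KO cells (adjusted p = 1.8e-10), and KO cells lay lower than EV cells without glucose, at -0.28 (SE 0.035, adjusted p = 0.00061).

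AURKB, the Aurora kinase of the chromosomal passenger complex, differed from PLK1 and AURKA under deprivation in EV cells. It was at 99.5 and 102 CPM in EV and 115 and 107 CPM in KO cells in regular medium, and at 105 and 106 CPM in EV and 92.8 and 88.4 CPM in KO cells without glucose. KO libraries were thus the higher ones in regular medium and the lower ones without glucose, with log2 fold changes of 0.14 (adjusted p = 0.083) and -0.22 (adjusted p = 0.0067) and an interaction of -0.35 (SE 0.060, adjusted p = 0.01). The call of AURKB without glucose was lost without either EV glucose-deprived library (adjusted p up to 0.0599), and its interaction also without EV regular a or the variance trend (up to 0.08). In EV cells AURKB did not pass the test with deprivation (0.06, adjusted p = 0.21), while in KO cells it fell (-0.29, adjusted p = 0.0001). CDK1, the kinase that drives mitotic entry, was not called between the lines without glucose (-0.13, SE 0.048, adjusted p = 0.085) and fell with deprivation in KO cells (-0.21, adjusted p = 0.0027), with an interaction of -0.19 that was not called (adjusted p = 0.14).

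**Figure D3:**
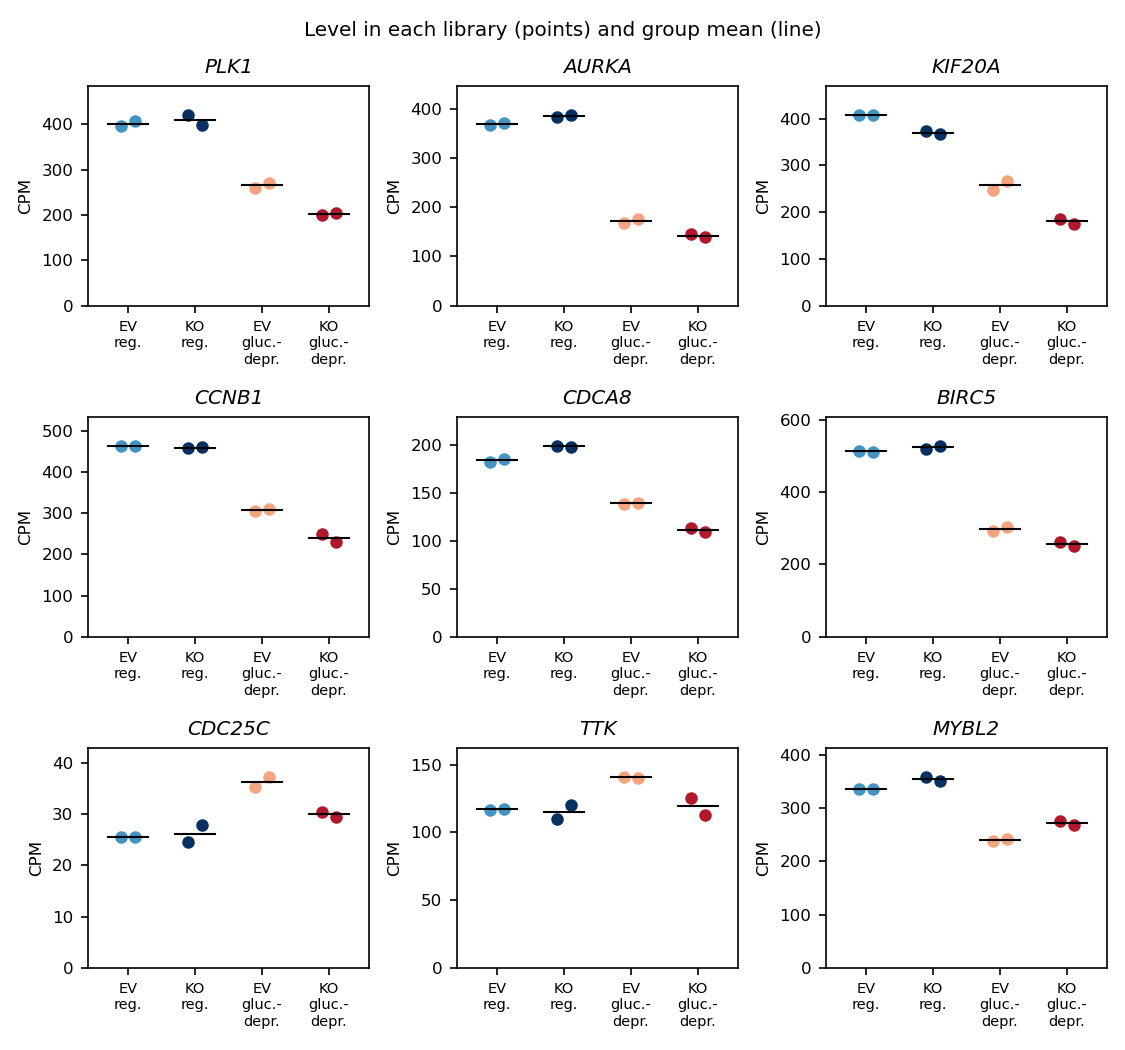
CPM (vertical axis, from 0) of 9 mitosis genes in each library (points) of the 4 groups (horizontal axis), with lines at the group means. PLK1, AURKA, KIF20A, CCNB1, CDCA8 and BIRC5 step down from regular medium to EV and then KO cells without glucose, CDC25C and TTK are highest in EV cells without glucose, and MYBL2 is higher in KO than in EV cells there.

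Of the 6 cyclins and CDK1 switches, 4 fell in KO against EV cells without glucose, and 2 without EV glucose-deprived b. CCNB1, the main mitotic cyclin, was at 463 and 465 CPM in EV and 458 and 460.3 CPM in KO cells in regular medium, and at 305 and 310.0 CPM in EV and 250.1 and 231 CPM in KO cells without glucose. The lines lay close in regular medium and separated without glucose, with a log2 fold change of -0.36 (SE 0.039, adjusted p = 0.00024) and an interaction of -0.34 (adjusted p = 0.0076). The interaction for CCNB1 was not called without EV regular a, EV glucose-deprived b or the variance trend (adjusted p up to 0.0643). CCNB2, another B-type cyclin, fell as far between the lines (-0.36, adjusted p = 0.00043), but deprivation in EV cells left it uncalled (0.07, adjusted p = 0.16). CCNA2, the cyclin of S phase and early mitosis, was at 190.4 and 188 CPM in EV and 176 and 174 CPM in KO cells in regular medium, and at 124 and 122 CPM in EV and 112 and 116 CPM in KO cells without glucose. Its KO libraries lay slightly below the EV libraries in both media, and neither difference was called (-0.11, adjusted p = 0.078, and -0.10, adjusted p = 0.057), while deprivation lowered it in both lines (-0.62 in each, adjusted p = 4.9e-08 in EV and 5.6e-08 in KO).

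CDC25B and CDC25C, phosphatases that remove the inhibitory phosphates from CDK1, stood apart from the cyclins. CDC25C was at 25.5 CPM in both EV libraries and 24.6 and 27.9 CPM in KO cells in regular medium, and at 35.3 and 37.4 CPM in EV and 30.5 and 29.4 CPM in KO cells without glucose. Each deprived library lay above each regular one, by 0.51 on the log2 scale in EV (SE 0.061, adjusted p = 2.2e-05) and 0.20 in KO cells (adjusted p = 0.015), and KO cells were lower than EV cells without glucose (-0.28, adjusted p = 0.012). That last call was lost without EV glucose-deprived b or KO glucose-deprived b (adjusted p up to 0.108). CDC25B was at 349 and 350.3 CPM in EV and 347 and 332 CPM in KO cells in regular medium, and at 385 and 386 CPM in EV and 346 and 353 CPM in KO cells without glucose. It rose with deprivation in EV cells and was not called in KO cells (0.14, adjusted p = 0.0024, against 0.04, adjusted p = 0.29, in KO cells), and the interaction was not called (-0.10, adjusted p = 0.21). The call of CDC25B between the lines without glucose (-0.14, adjusted p = 0.013) did not hold without either EV glucose-deprived library or without the variance trend, with adjusted p-values up to 0.0971. CKS2, a small CDK-binding subunit, was at 91.2 and 88.2 CPM in EV and 90.4 and 97.1 CPM in KO cells in regular medium, and at 63.4 and 63.8 CPM in EV and 61.1 and 60.7 CPM in KO cells without glucose. It fell with deprivation in both lines (-0.50, adjusted p = 1.4e-06, and -0.62, adjusted p = 2.7e-07) and was not called between them without glucose (-0.06, adjusted p = 0.32).

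Spindle checkpoint genes, whose products hold back anaphase until kinetochores are attached, fell in 4 of 5 cases in KO against EV cells without glucose. Only BUB1 kept that call without EV glucose-deprived a, EV glucose-deprived b or KO glucose-deprived b, or without the variance trend, since BUB1B, BUB3 and TTK lost it, with adjusted p-values up to 0.129, 0.194 and 0.0863. BUB1, a checkpoint kinase, was at 275 and 272 CPM in EV and 258 and 275 CPM in KO cells in regular medium, and at 232 and 235 CPM in EV and 202 and 189.9 CPM in KO cells without glucose. The lines overlapped in regular medium and separated without glucose (-0.26, SE 0.041, adjusted p = 0.0024). TTK, the kinase that recruits the checkpoint to kinetochores, was at 117 CPM in both EV libraries and 110.0 and 120.4 CPM in KO cells in regular medium, and at 141 and 140.1 CPM in EV and 125 and 113 CPM in KO cells without glucose. It rose with deprivation in EV cells (0.26, adjusted p = 0.001), where both deprived libraries lay above both regular ones, and was not called in KO cells (0.05, adjusted p = 0.44), whose libraries overlapped between media. The interaction for TTK was -0.22 and was not called (adjusted p = 0.12). MAD2L1, the MAD2 protein that inhibits the anaphase-promoting complex, was the checkpoint gene not called between the lines (-0.10, adjusted p = 0.17).

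At anaphase entry, CDC20, the activator of the anaphase-promoting complex, was at 592 and 582 CPM in EV and 577 and 532 CPM in KO cells in regular medium, and at 371 and 368 CPM in EV and 289 and 306 CPM in KO cells without glucose. It fell with deprivation in both lines (-0.67, adjusted p = 1.7e-07, and -0.90, adjusted p = 2.3e-08), and both KO libraries without glucose lay below the EV ones (-0.31, SE 0.043, adjusted p = 0.001). ESPL1, the protease separase that cleaves cohesin, was at 265 and 263 CPM in EV and 288 and 281 CPM in KO cells in regular medium, and at 193 and 199 CPM in EV and 165 CPM in both KO libraries without glucose. Its KO libraries were above EV in regular medium (0.11, adjusted p = 0.071) and below without glucose (-0.25, adjusted p = 0.0007), and the interaction was -0.35 (SE 0.045, adjusted p = 0.0024). PTTG1, the separase inhibitor securin, fell too (-0.25, adjusted p = 0.0037). UBE2C, the ubiquitin-conjugating enzyme of the complex, did not pass in any of the 5 comparisons, and its EV and KO libraries overlapped without glucose (-0.09, adjusted p = 0.22).

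The chromosomal passengers, which with Aurora B correct kinetochore attachments and start cytokinesis, fell in all 3 cases with deprivation in each line and in KO against EV cells without glucose. AURKB, the kinase of this complex, was counted with the mitotic kinases and was not called with deprivation in EV cells (0.06, adjusted p = 0.21). CDCA8, the passenger borealin, was at 182 and 185 CPM in EV and 199 and 197 CPM in KO cells in regular medium, and at 138 and 139.6 CPM in EV and 114 and 109 CPM in KO cells without glucose. The KO libraries were the higher in regular medium (0.11, adjusted p = 0.075) and the lower without glucose (-0.32, SE 0.034, adjusted p = 0.00021), and the interaction was -0.43 (SE 0.047, adjusted p = 0.00097). BIRC5, the passenger survivin, was at 515 and 511 CPM in EV and 519 and 529 CPM in KO cells in regular medium, and at 293 and 304 CPM in EV and 261 and 252 CPM in KO cells without glucose. It fell with deprivation in EV cells (-0.78, adjusted p = 9.9e-09), and the KO libraries lay below EV without glucose (-0.22, SE 0.034, adjusted p = 0.002). The interaction for BIRC5, -0.25 (adjusted p = 0.019), did not hold when any of the 4 EV libraries was left out or without the variance trend, with adjusted p-values up to 0.115.

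Among kinetochore genes, CENPA, the histone H3 variant that marks centromeres, was at 59.9 and 56.1 CPM in EV and 54.7 and 58.1 CPM in KO cells in regular medium, and at 47.9 and 49.4 CPM in EV and 37.1 and 36.7 CPM in KO cells without glucose. The lines overlapped in regular medium, and without glucose the KO libraries were the lowest (-0.40, SE 0.047, adjusted p = 0.00043). CENPF was at 1074 and 1071 CPM in EV and 1011 and 1082 CPM in KO cells in regular medium, and at 1128 and 1195 CPM in EV and 963 and 908 CPM in KO cells without glucose. Deprivation moved it up in EV cells (0.11, adjusted p = 0.035) and down in KO cells (-0.16, adjusted p = 0.007), with an interaction of -0.28 (SE 0.062, adjusted p = 0.038). That interaction lost its call without 6 of the 8 libraries in turn, with adjusted p-values up to 0.163, and the fall in KO cells without KO regular b (adjusted p = 0.0616). CENPE, a kinetochore motor, NDC80, a microtubule-binding subunit, and KNL1, the scaffold for the checkpoint, fell between the lines without glucose by 0.27, 0.21 and 0.18 on the log2 scale (adjusted p = 0.0097, 0.017 and 0.015), and NUF2, the partner of NDC80, did not pass (-0.19, adjusted p = 0.061). CENPE, NDC80 and KNL1 lost their calls without EV glucose-deprived a, EV glucose-deprived b or KO glucose-deprived b, with adjusted p-values up to 0.0783, 0.141 and 0.134, which left 2 kinetochore genes called lower.

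Of the kinesins, motors that slide and shorten microtubules, KIF20A had the largest log2 fold change between the lines without glucose among the 54 tested genes of the chosen list. KIF20A, a motor of the central spindle, was at 409 and 408 CPM in EV and 373 and 367 CPM in KO cells in regular medium, and at 247 and 267 CPM in EV and 186 and 175 CPM in KO cells without glucose. Its KO libraries lay below EV in both media, with log2 fold changes of -0.14 (adjusted p = 0.073) and -0.51 (SE 0.043, adjusted p = 4.2e-05), and the interaction was -0.37 (SE 0.061, adjusted p = 0.0091). That interaction missed the threshold without EV regular a, EV regular b, EV glucose-deprived b or the variance trend, with adjusted p-values up to 0.069. KIF2C, a motor that depolymerises microtubules at kinetochores, was at 238 and 242 CPM in EV and 252 and 250.2 CPM in KO cells in regular medium, and at 280.2 and 277 CPM in EV and 239.8 and 226 CPM in KO cells without glucose. Deprivation raised it in EV cells (0.21, SE 0.036, adjusted p = 0.00025) and lowered it in KO cells (-0.11, adjusted p = 0.018), and the interaction was -0.32 (adjusted p = 0.0066). The fall of KIF2C in KO cells was not called without KO regular a, KO glucose-deprived b or the variance trend or with the KO groups alone (adjusted p up to 0.106), nor its interaction without EV regular a, EV glucose-deprived a or the variance trend (up to 0.0612). KIF14, a motor of cytokinesis, was at 165 and 164 CPM in EV and 154 and 166 CPM in KO cells in regular medium, and at 180.2 and 185 CPM in EV and 169 and 166 CPM in KO cells without glucose. It rose in EV cells with deprivation (0.15, adjusted p = 0.0052, and 0.0503 without EV glucose-deprived b), and the difference between the lines without glucose was -0.12 (adjusted p = 0.052). KIF18A, KIF23, KIF4A, KIF20B and KIF22 also fell between the lines without glucose, with log2 fold changes from -0.36 for KIF18A to -0.13 for KIF22, while KIF11, the motor that separates spindle poles, did not pass (-0.11, adjusted p = 0.16). The 7 kinesins called lower became 5 without EV glucose-deprived a and 3 without EV glucose-deprived b, where KIF4A, KIF20B, KIF22 and KIF23 lost their calls.

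All 5 spindle assembly genes fell in KO against EV cells without glucose. TPX2, which activates AURKA on spindle microtubules, was at 923 and 928 CPM in EV and 904 and 918 CPM in KO cells in regular medium, and at 734 and 752 CPM in EV and 643 and 614 CPM in KO cells without glucose. The KO libraries without glucose were the lowest (-0.24, SE 0.033, adjusted p = 0.00099). HMMR, the single 1 of the 54 tested genes called lower in regular medium, was at 160.0 and 166 CPM in EV and 135 and 123 CPM in KO cells without glucose. Its KO libraries were below EV in both media (-0.34 without glucose, adjusted p = 0.0019), it was not called with deprivation in either line (0.08, adjusted p = 0.2, in EV and -0.03, adjusted p = 0.57, in KO cells), and the interaction was not called (-0.11, adjusted p = 0.39). ASPM and DLGAP5, proteins of the spindle poles and spindle fibres, fell by 0.29 and 0.30 on the log2 scale (adjusted p = 0.00078 and 0.0054), and the microtubule bundler NUSAP1 fell by 0.21 (adjusted p = 0.013). DLGAP5 and NUSAP1 lost their calls without EV glucose-deprived b (adjusted p up to 0.0644 and 0.113), which left 3 of the 5, and NUSAP1 also without EV glucose-deprived a or KO glucose-deprived b.

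For cytokinesis, ANLN, the actin-binding scaffold of the contractile ring, was at 913 and 919 CPM in EV and 876 and 923 CPM in KO cells in regular medium, and at 574 and 597 CPM in EV and 555 and 512 CPM in KO cells without glucose. It fell with deprivation in both lines (-0.65, adjusted p = 2.5e-07, and -0.75, adjusted p = 8.6e-08), and its difference between the lines without glucose was -0.13 (adjusted p = 0.053), just outside the threshold. The difference for ANLN passed without KO glucose-deprived a (-0.19, adjusted p = 0.00898), without KO regular a or b (adjusted p = 0.0415 and 0.0419), with a filter at a mean log2 CPM of 3 (0.0483) and with weights by group spread (0.0375). ECT2, the exchange factor that switches on RhoA at the cleavage site, was at 207 and 205 CPM in EV and 182 and 197 CPM in KO cells in regular medium, and at 179.6 and 182 CPM in EV and 155 and 144 CPM in KO cells without glucose. Its KO libraries were below EV in both media, and the difference was called without glucose (-0.27, SE 0.046, adjusted p = 0.0036) and not in regular medium. PRC1, which bundles midzone microtubules, and CEP55, which recruits the abscission machinery, fell by 0.29 and 0.14 on the log2 scale without glucose (adjusted p = 0.00075 and 0.047). CEP55 lost its call under 8 of the 16 other settings, among them voom weights, the fit of the deprived groups alone and 5 of the left-out libraries, with adjusted p-values up to 0.253.

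In chromosome structure, MKI67, the Ki-67 protein that coats mitotic chromosomes and serves as a proliferation marker, was at 1384 and 1408 CPM in EV and 1432 and 1452 CPM in KO cells in regular medium. Without glucose it was at 1053 and 1084 CPM in EV and 885 and 829.5 CPM in KO cells. The KO libraries were the highest in regular medium (0.05, adjusted p = 0.47) and the lowest without glucose (-0.32, SE 0.037, adjusted p = 0.0004), and the interaction was -0.37 (adjusted p = 0.0043). TOP2A, the topoisomerase that untangles sister chromatids, fell between the lines without glucose (-0.30, adjusted p = 0.0016), although it was not called with deprivation in EV cells (0.06, adjusted p = 0.29). Of the condensin subunits, NCAPG and NCAPH fell between the lines without glucose (-0.22, adjusted p = 0.0069, and -0.13, adjusted p = 0.041), and SMC2 and SMC4 were not called. Without either EV glucose-deprived library, NCAPG and NCAPH lost their calls (adjusted p up to 0.06 and 0.228), NCAPH in 7 of the 16 other settings in all. SMC4 was at 457 and 456 CPM in EV and 411 and 455 CPM in KO cells in regular medium, and at 388 and 399 CPM in EV and 398 and 382 CPM in KO cells without glucose. Its libraries overlapped there (-0.01, SE 0.046, adjusted p = 0.88), and it fell with deprivation in EV cells (-0.21, adjusted p = 0.0014) and in KO cells (-0.15, adjusted p = 0.013), the latter not called without KO regular b or KO glucose-deprived b (adjusted p up to 0.103).

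Of the 2 transcription factors, the estimates had opposite signs between the lines without glucose. MYBL2, the B-MYB factor that joins MuvB late in S phase, was at 336 and 337 CPM in EV and 359.9 and 351 CPM in KO cells in regular medium, and at 238 and 243 CPM in EV and 276 and 268 CPM in KO cells without glucose. Both KO libraries lay above both EV libraries in each medium. Of the 54 tested genes of the chosen list, MYBL2 alone was called higher in KO cells without glucose (0.18, SE 0.032, adjusted p = 0.0045). The call was lost without EV glucose-deprived a (0.16, adjusted p = 0.0579). Deprivation lowered MYBL2 in both lines (-0.49, adjusted p = 2e-07, and -0.39, adjusted p = 1.2e-06). FOXM1, the forkhead factor of G2 genes, was at 396 and 398 CPM in EV and 416 and 403 CPM in KO cells in regular medium, and at 345 and 349 CPM in EV and 329 and 320.3 CPM in KO cells without glucose. It fell with deprivation in both lines (-0.20, adjusted p = 0.00021, and -0.34, adjusted p = 3.7e-06), and its difference between the lines without glucose was -0.095 (SE 0.032, adjusted p = 0.06). It passed without KO regular a, KO regular b or KO glucose-deprived a (adjusted p = 0.041, 0.0413 and 0.0386).

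Other genes of cell division, listed by function and also with earlier results of these data known, were counted beside these. Of 61 further tested mitosis genes, 27 (44.3%) fell and 1 rose in KO against EV cells without glucose, against 10.6% and 9.04% of all genes tested, with a median log2 fold change of -0.12. Their interaction was called negative for 16 and positive for 0 by limma, where 2.01% and 2.31% of all genes tested were called. At an unadjusted p under 0.05 it was negative for 27 and positive for 5 of the 61, where 1636 and 1528 of all 13057 genes tested were. Fewer fell between the lines, and fewer interactions were called negative, when any 1 of the 4 EV libraries was left out. The same held over all genes tested. Without KO glucose-deprived a, more interactions were called negative and some were called positive. PIF1, a helicase, averaged 28.9 CPM in EV cells and 19.4 CPM in KO cells without glucose, a log2 fold change of -0.57 (SE 0.043, adjusted p = 2e-05). PSRC1, a spindle protein, averaged 59.9 and 45.0 CPM there (-0.41, adjusted p = 0.00012). CIT, the citron kinase of cytokinesis, rose with deprivation, from 229 to 564 CPM in EV cells (1.30, adjusted p = 1.8e-10), and was lower in KO cells without glucose, at 428 CPM (-0.40, adjusted p = 2.9e-05). CDC25A, the CDK phosphatase that also acts in S phase, was the 1 that rose (0.24, adjusted p = 0.0031). The same 10.6% and 9.04% of all genes tested apply to the calls in the remaining lists. At an unadjusted p under 0.05, 2398 of all 13057 genes tested were lower and 2060 higher. Of 15 genes of the anaphase-promoting complex and its coactivator, 3 (20%) fell and 1 rose, and none was called without either EV glucose-deprived library. Of 12 cohesin genes, 2 (16.7%) fell and 0 rose by limma, with 3 lower and 2 higher at an unadjusted p under 0.05. Of 11 DREAM and MuvB genes, 2 (18.2%) fell and 1 rose, with 2 lower and 4 higher at an unadjusted p under 0.05. Without EV glucose-deprived b, 0 cohesin genes and 1 DREAM gene were called, and without EV glucose-deprived a the counts were 1 and 0.

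DNA replication genes, which serve S phase, were called higher more often than lower between the lines without glucose. Of 37 tested, 18 (48.6%) rose in KO cells and 3 fell, with a median log2 fold change of 0.14, where 9.04% of all genes tested were called higher and 10.6% lower. Fewer of the 37 rose when any 1 of the 4 EV libraries was left out. Most of the 18 calls were lost when either EV glucose-deprived library was the one left out. Over all genes tested, fewer were called higher in each of these fits too. ORC6, a subunit of the origin recognition complex, averaged 22.0 CPM in EV cells and 28.0 CPM in KO cells without glucose (0.35, SE 0.043, adjusted p = 0.00058). SLBP, which binds histone mRNA, averaged 48.2 and 56.9 CPM (0.24, adjusted p = 0.0035). MCM7, a helicase subunit, fell in KO cells in both media (-0.38, adjusted p = 0.00012, in regular and -0.30, adjusted p = 0.00027, in glucose-deprived medium). The interaction was called positive for 5 of the 37 and negative for 0 by limma, where 2.31% and 2.01% of all genes tested were called. At an unadjusted p under 0.05, 17 were positive and 0 negative, where 1528 and 1636 of all 13057 genes tested were. There were more positive calls without KO glucose-deprived a and fewer without any 1 of the EV libraries, as there were over all genes tested. MCM6, another helicase subunit, had an interaction of 0.36 (adjusted p = 0.0036). Deprivation itself lowered 28 of 37 in EV cells and 25 of 37 in KO cells, where 38.7% and 36.8% of all genes tested were called lower.

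**Figure D4:**
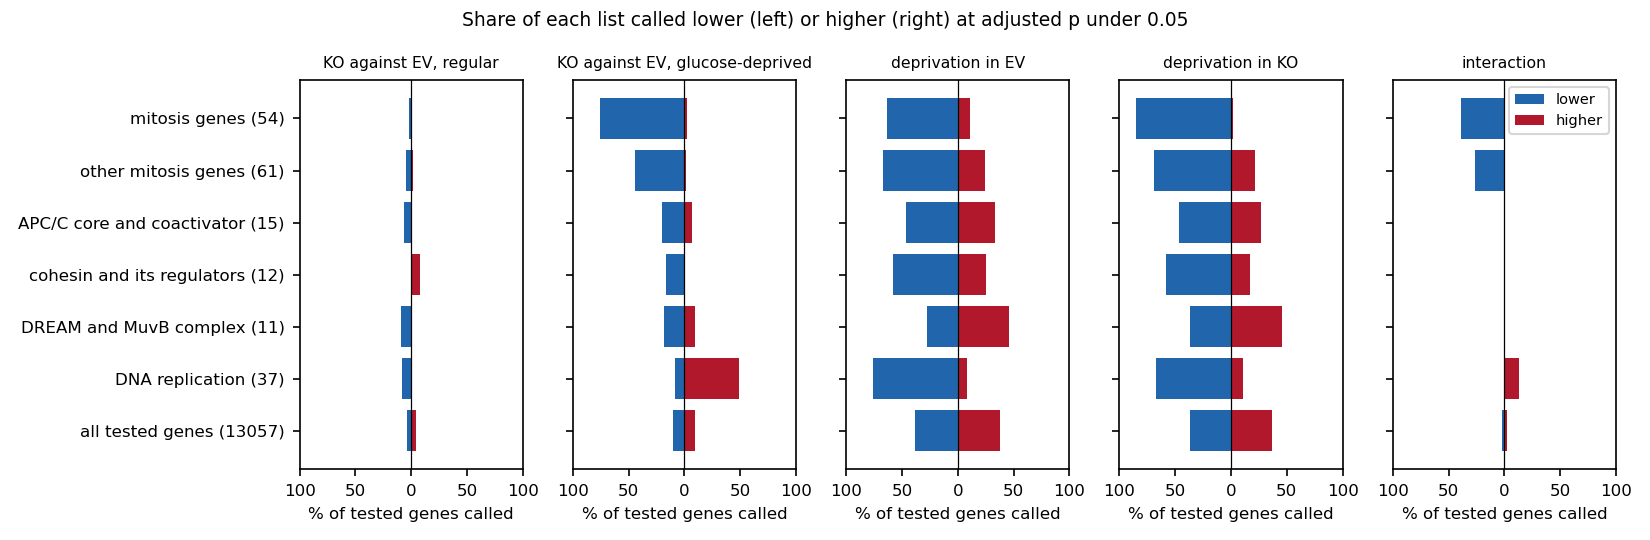
Percent of tested genes called lower (blue, left) or higher (red, right) in each list and in all tested genes (vertical axis, number tested in parentheses), for each of the 5 comparisons. In KO against EV cells without glucose, 75.9% of the mitosis genes were called lower and 48.6% of the DNA replication genes higher, against 10.6% and 9.04% of all genes tested.

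Some mitosis genes share sequence with others, and the library preparation does not mark strand, so reads from overlapping genes cannot be told apart. In GENCODE 29 on GRCh38, 20 of the 55 genes share exonic bases with another gene. The overlap covers 62.2% of the exonic bases of NUSAP1 and 57.6% of those of PRC1, in both cases with a gene model on the same strand, and 33.1% of those of NCAPG, with LCORL on the opposite strand. For SMC4 it is 18.5% with TRIM59, for FOXM1 15.9% with ITFG2, and for PLK1 11.6% with an antisense transcript. In KIF20A the shared bases are 3.34% with BRD8 and 1.72% with CDC23. A pseudogene named after the gene exists for 11 of the 55, including AURKA, UBE2C and PTTG1, and how the authors counted reads that match both is not given in the sources used here.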

How the data were processed

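RNA-seq was measured in 8 libraries, 2 for each of 4 groups. Libraries were made from total RNA, per the labels' protocols, with SMART-Seq and Nextera XT reagents, which do not mark strand. Per the submitters' processing notes, the tools were HISAT2 and edgeR and the genome build was GRCh38. The versions, the read counter, the annotation and the gene filter are not given in the sources used here. The deposited table holds log2 CPM values for 13730 genes, 82 without a symbol. This unit was read from the values, which gave whole reads for 100% of entries within a tolerance of 0.05. Printed CPM values were obtained by undoing the log2 and removing an offset of 0.023 CPM. Column headers name the group and no replicate, so a and b stand for the first and second column of a group. The header suffix GlcN was read as glucose-deprived, which the labels do not explain.

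The deposited log2 values of the 13057 genes with a mean of at least 0 were modelled in limma 3.58.1 (R 4.3.3). It was 1 model of the 4 groups with a variance trend, 4 residual and 6.29 prior degrees of freedom, and was tested on simulated data. The 5 comparisons were KO against EV cells in each medium, deprivation in each line, and the interaction. Alternatives were other filters, no variance trend, each comparison's own groups, median-of-ratios scaling, log2(CPM + 1), voom weights on the recovered reads, and leaving out each library. Weights by group spread were added after seeing the data. Count models were not run on the recovered reads, since the deposited unit is log2.

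The genes and lists were chosen with earlier results of these data known. Library values are printed for the gene with the highest mean level in each role and the 3 most positive and 3 most negative log2 fold changes of each comparison, CCNB1 being added after its values were seen, and other lists are represented by up to 3 called genes for each comparison with the smallest adjusted p. Promoters are RefSeq's, on GRCh38.p14, and strings were searched 250 bases before the start, with 100 as the alternative. Gene positions are from GENCODE 29.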

Additional observations from a re-analysis of the deposited data

Results flagged for a closer look

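The knockout effect differed between media for 21 mitosis genes, tested by limma's interaction term. Each value in parentheses is the log2 fold change of KO against EV cells in glucose-deprived medium minus that in regular medium. The kinases were PLK1 (-0.422), AURKA (-0.341) and AURKB (-0.355). The cyclins were CCNB1 (-0.342) and CCNB2 (-0.303). At anaphase entry the genes were ESPL1 (-0.353) and PTTG1 (-0.245), and the passengers were CDCA8 (-0.428), INCENP (-0.307) and BIRC5 (-0.249). The kinetochore genes were CENPA (-0.357) and CENPF (-0.275). Among kinesins the values were KIF20A (-0.366), KIF2C (-0.324), KIF23 (-0.283), KIF4A (-0.225) and KIF22 (-0.196). The remaining genes were MKI67 (-0.365), PRC1 (-0.282), TOP2A (-0.27) and TPX2 (-0.219), which serve chromosome structure, cytokinesis and spindle assembly. All 21 are negative, so in each the KO line was lower relative to EV without glucose than with it. The call held under every setting tried for 5 of the 21. Groups of 2 libraries are too small for a check of single outlying libraries.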

How the results depend on the processing

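No paired analysis was possible because the columns carry no replicate numbers. No called mitosis gene changed sign under any setting tried. Of the 41 genes lower in KO than in EV cells without glucose, 23 were called under every setting, as were 30 of 34 lower and 4 of 6 higher with deprivation in EV cells, 42 of 46 lower with deprivation in KO cells and 5 of 21 with a called interaction. Leaving out 1 library at a time gave 0 to 4 called lower and 0 to 2 higher in KO against EV cells in regular medium, 23 to 47 lower and 0 to 1 higher without glucose, 0 to 2 higher with deprivation in KO cells, and 6 to 32 for the interaction. Without the variance trend, 0 were lower in regular medium, 31 were lower in KO than in EV cells without glucose, and 5 had a called interaction. Over all genes tested, 219 and 984 were then called lower, and 71 had a negative interaction called. With each comparison's own groups fitted alone, 2 were lower in regular medium and 13 higher with deprivation in EV cells. Over all genes tested these counts were 420 and 5231. Weighting libraries by group spread gave 10 higher with deprivation in EV cells, when 5272 of all genes tested were called higher. The share of promoters with a CHR string was 61.7% over 250 bases and 46.7% over 100. Median-of-ratios scaling left the median of all tested genes at 0.01 in KO against EV cells in regular medium and -0.01 in glucose-deprived medium on the log2 scale. The cause of these changes was not tested. With 2 libraries in a group, a left-out fit assumes that the remaining library varies like the other groups. The number of all genes tested that were called varied between the left-out fits too.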

Other observations

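Regulators that act before mitosis were measured in the same libraries. CDKN1A, the CDK inhibitor p21, averaged 117 CPM in EV cells and 122 CPM in KO cells in regular medium, and 181 and 202 CPM without glucose. It rose with deprivation in both lines (log2 fold change 0.63, adjusted p = 4.2e-07 by limma in EV cells, and 0.73, adjusted p = 1.7e-07 in KO cells) and was higher in KO than in EV cells without glucose (0.16, SE 0.046, adjusted p = 0.032), a call lost under 6 of 16 other settings, including without any of the 4 EV libraries (adjusted p up to 0.25). CDKN1B, the CDK inhibitor p27, rose with deprivation (0.47, adjusted p = 6.2e-06, in EV cells and 0.43, adjusted p = 1.4e-05, in KO cells) and was lower in KO cells without glucose (-0.18, adjusted p = 0.026), a call lost under 7 of 16, again including each EV library left out (up to 0.205). CCND1, the main G1 cyclin, fell from 1141 to 539 CPM in EV cells with deprivation (-1.08, adjusted p = 8.1e-10) and from 1266 to 546 CPM in KO cells (-1.21, adjusted p = 3.9e-10). It was not called between the lines without glucose (0.02, adjusted p = 0.73). CCND3, another D-type cyclin, was higher in KO cells in both media (0.20, adjusted p = 0.017, and 0.23, adjusted p = 0.0037). The call in regular medium was lost without EV regular a, EV regular b, KO regular a or the variance trend (up to 0.182), and that without glucose without EV glucose-deprived b (0.0522).

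RBL2, the p130 protein around which the DREAM repressor of cell cycle genes assembles, rose with deprivation from 41.2 to 53.3 CPM in EV cells (0.37, adjusted p = 8.2e-06) and was lower in KO than in EV cells in both media (-0.20, adjusted p = 0.016, and -0.19, adjusted p = 0.0098). Those calls of RBL2 were lost without EV regular a, EV regular b or KO regular a in regular medium (up to 0.158) and without EV glucose-deprived a in the other (0.0988). UHRF1, a factor that maintains DNA methylation at replication forks, fell with deprivation from 224 to 72.3 CPM in EV cells (-1.63, adjusted p = 2.5e-10), and CDC6, which loads the replicative helicase, rose from 116 to 270.5 CPM (1.22, adjusted p = 1.6e-09).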
